A study of Mus musculus with 2 samples.

Results

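A group of NF-κB pathway genes was examined for binding of the transcription factor YY1 in mouse muscle stem cells (MuSCs): the Rel family genes Rel, Rela, Relb, Nfkb1 and Nfkb2, the inhibitor genes Nfkbia and Nfkbib, the kinase genes Chuk and Ikbkb, and Tnfaip3, a negative regulator. These 10 genes, out of 21938 protein-coding genes of the annotation, were taken by name. They were chosen with earlier results of these data known. For each gene, summits of YY1 peaks were sought within 1000 bp of a transcript start (here called the promoter), inside the gene, and, where neither held one, at the nearest position on the chromosome.

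The data came from 1 YY1 ChIP-seq library, an experiment in which an antibody recovers the DNA bound by a protein, called against 1 background library. The cells were MuSCs pooled from several mdx mice, which lack dystrophin, of the Ctrl genotype Pax7 CreERT2/R26YFP with Yy1+/+, so that YY1 was not deleted. The Pax7-driven Cre marks MuSCs with YFP, by which the study sorted them from hindlimb muscle. The study gave tamoxifen, which turns this Cre on, to Ctrl mice too, but does not state it for this library. The age of the mice used for this library is not given in the sources used here. The sample labels describe cultured MuSCs and the series calls them WT, whereas the study's text describes MuSCs sorted directly from mdx muscle, and the background is named input in the labels and IgG in the methods. Pooling and single libraries leave no replicates, so no value below carries an error between mice. Intervals cover the counting error of the YY1 fragments only, with the background taken as fixed. The peak list holds no expression values, so the MuSC label could not be checked against marker genes. The list holds 4681 peaks, with a median of 14 DNA fragments at the summit, and 3971 of the summits lie in a promoter.

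NF-κB is a family of dimeric transcription factors built from Rel proteins. In resting cells IκB proteins hold the dimers in the cytoplasm. After a signal such as TNF, the IKK kinases phosphorylate IκB, which is then ubiquitinated and degraded, and the freed dimers enter the nucleus and bind kappaB sequences in promoters and enhancers. Among their targets are genes for IκB proteins and for deubiquitinating enzymes that shut the signal off. In muscle, NF-κB activity is known for its part in inflammation and wasting, and YY1 was itself described as a gene under its control in myoblasts.

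Of the 10 genes, 6 had a YY1 summit in a promoter: Rel, Rela, Relb, Nfkb2, Nfkbia and Tnfaip3. Among all protein-coding genes of the annotation the share was 18.8% (4119 of 21938). The difference was not tested, since the genes were not chosen independently of these data. The other 4 genes, Nfkb1, Nfkbib, Chuk and Ikbkb, had no summit in a promoter and none inside the gene, so that the count of genes with a summit in either place was also 6, beside 20.2% of protein-coding genes. By role, all 3 of the Rel subunits made without a precursor had a promoter summit, as did 1 of the 2 precursor genes, 1 of the 2 IκB genes, 0 of the 2 IKK kinase genes and the negative regulator. Each of the 6 genes had 1 summit and no second, and no start of another gene lay within 1000 bp of any of the 6 summits. Of all promoter peaks 29.8% lay at starts of 2 or more genes, and 6 peaks are too few to show a difference from this share.

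**Figure D1:**
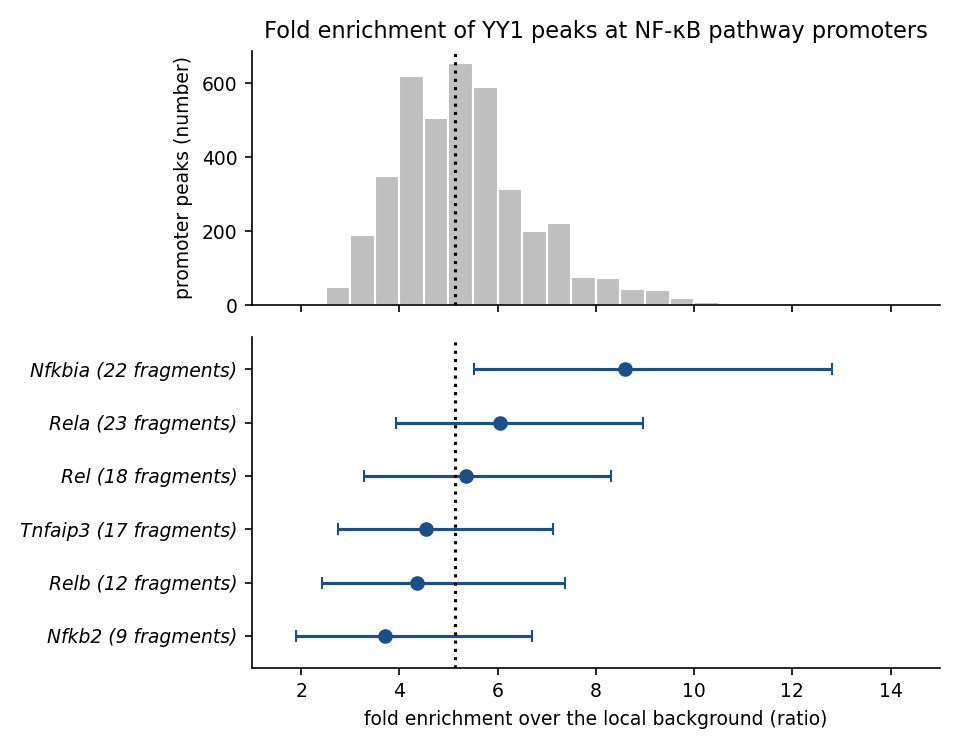
Upper panel: number of promoter peaks (y) by fold enrichment over the local background (x, ratio, bins of 0.5). Lower panel: fold enrichment at the 6 NF-κB pathway genes on the same axis, with 95% exact Poisson intervals of the fragments at the summit as bars, and the median of all promoter peaks, 5.13, as a dotted line in both panels. The Nfkbia interval starts at 5.52, above that median, and the other 5 intervals include it.

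Fold enrichment, as deposited by the authors, divides the fragments at a summit, plus 1, by the fragments expected there from the background, plus 1. Over the 6 genes it had a median of 4.95 and ran from 3.71 at Nfkb2 to 8.59 at Nfkbia, beside a median of 5.13 over all promoter peaks. The summits held between 9 and 23 fragments with a median of 17.5, beside 15 over all promoter peaks. Both medians thus lay close to those of promoters at large, and the interval of Nfkbia overlapped those of the other 5. Of the 10 genes 3, Rel, Rela and Nfkbia, had a fold enrichment of at least 5, which 11.1% of protein-coding genes reached in a promoter. The p-value and q-value quoted for a peak compare the fragments of this library with the background library and do not describe variation between animals.

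Rel encodes c-Rel, a subunit with a transactivation domain that is best known in lymphocytes. The gene lies on the minus strand at chr11:23736847-23770970 (GRCm38) and has 1 annotated start. Its peak, chr11:23770991-23771452, lay wholly before the gene, with the summit 217 bp upstream of the start. At the summit 18 fragments stood over a background of 2.55, a fold enrichment of 5.35 (95% exact Poisson interval 3.29 to 8.30, p = 3.86e-11, q = 5.84e-07, by the authors' peak caller). This was close to the middle of the promoter peaks, of which 55.5% were lower. The first of the next lines gives the reference sequence within 100 bp of the Rel summit, chr11:23771087-23771287, read along the gene, in which neither the YY1 motif AANATGGC nor a kappaB match occurs. The second gives chr11:23771031-23771080, 110 to 61 bp before the start and still inside the peak, with the bases of its overlapping pair of kappaB matches in capitals.

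Rel summit: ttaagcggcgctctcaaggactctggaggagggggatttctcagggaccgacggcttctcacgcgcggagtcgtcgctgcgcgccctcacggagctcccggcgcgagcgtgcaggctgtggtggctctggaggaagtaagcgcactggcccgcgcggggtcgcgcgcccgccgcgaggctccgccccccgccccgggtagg
Rel start: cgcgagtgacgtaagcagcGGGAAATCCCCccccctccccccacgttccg

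Rela encodes the subunit whose dimer with the processed Nfkb1 product is the classical NF-κB. It lies on the plus strand at chr19:5637483-5648130, and its peak, chr19:5637450-5637902, spans the start. The summit lay 176 bp downstream of the start, in the 5′ UTR part of exon 1. Here 23 fragments, the most among the 6 genes, stood over 2.96, which gave a fold enrichment of 6.06 (exact Poisson interval 3.93 to 8.96, p = 1.98e-14, q = 7.69e-10). Of the promoter peaks 75.9% were lower. Relb, the subunit of the noncanonical branch that pairs with the processed Nfkb2 product, lies on the minus strand at chr7:19606217-19629438. Its peak, chr7:19629202-19629487, also spanned the start and had its summit 100 bp downstream, in the UTR part of exon 1. It held 12 fragments over 1.98, a fold enrichment of 4.37 (exact Poisson interval 2.42 to 7.38, p = 1.81e-07, q = 0.000732). Its interval overlaps those of Rel and Rela, so the order of these 3 cannot be told from 1 library. In the next lines, 30 bases centred on the Rela summit (chr19:5637644-5637673) and the Relb summit (chr7:19629323-19629352) show GC-rich sequence without a match, and the 110 bases before the Relb start (chr7:19629439-19629548) are given because they hold 2 kappaB matches, in capitals.

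Rela summit: cgcgcacctgctctcggccccccacgcgcg
Relb summit: gcccggccggtgatcgtcccagccgaccgg
Relb start: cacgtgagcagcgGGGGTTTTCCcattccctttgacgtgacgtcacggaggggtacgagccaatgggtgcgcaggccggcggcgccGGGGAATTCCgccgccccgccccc

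Nfkb1 and Nfkb2 encode the precursors whose processed forms serve as DNA-binding subunits. They differed here. Nfkb2, on the plus strand at chr19:46304320-46312385, has 4 starts in the annotation, and its peak, chr19:46304437-46304701, had its summit 185 bp downstream of the first of them. The same summit was 239 and 295 bp upstream of the next 2 starts and 1191 bp upstream of the last. It was the weakest of the 6, with 9 fragments over 1.70 and a fold enrichment of 3.71 (exact Poisson interval 1.90 to 6.70, p = 1.19e-05, q = 0.0216), and 10.1% of the promoter peaks were lower. It was the only one of the 6 peaks with a q-value above 0.01. The 30 bases around this summit, chr19:46304490-46304519, lie in the 5′ UTR of the longest transcript.

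Nfkb2 summit: gatctgagccgcgccctgcgctgggtccgt

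Nfkb1, a minus-strand gene at chr3:135584655-135691547, had no summit within 1000 bp of either of its 2 starts and none in its 106.9 kb. The nearest summit lay 228223 bp from a start, beyond the 3′ end of the gene, at Ube2d3, which encodes a ubiquitin-conjugating enzyme. That peak had 11 fragments and a fold enrichment of 3.84. On the other side the next summit was 1002112 bp from the same start, at Ppp3ca, a gene for a catalytic subunit of calcineurin. Nfkb1 thus lay in a stretch of more than 1 Mb with no peak in this list.

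**Figure D2:**
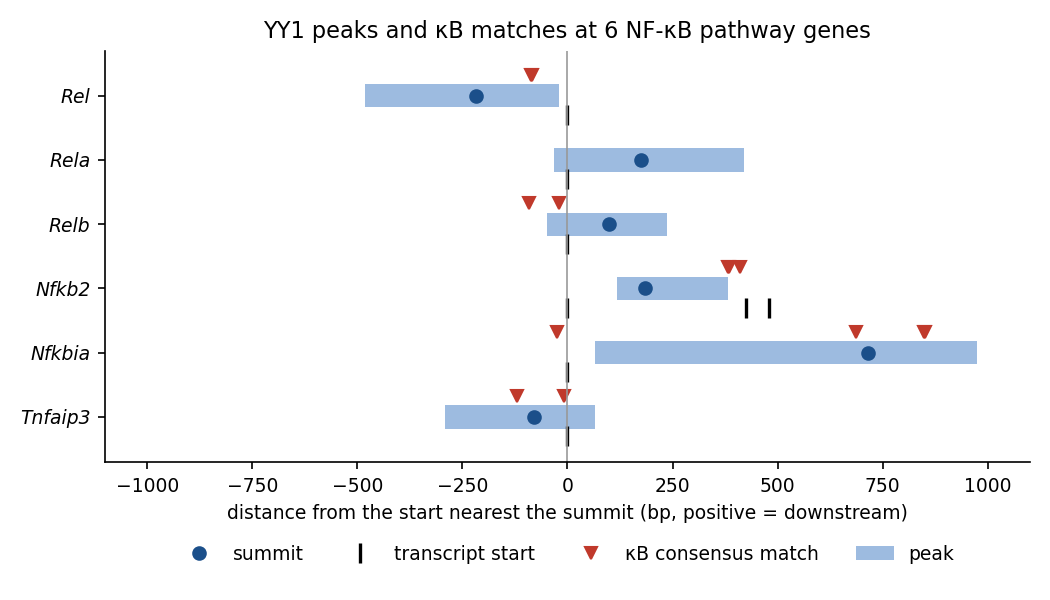
Peaks (bars), summits (circles), transcript starts (ticks) and kappaB matches (triangles) at the 6 genes with a promoter summit, by distance in bp from the start nearest the summit, with positive values downstream. Triangles mark matches in the peak or in the 250 bp before to 50 bp after a start, and starts outside the axis are not drawn. The summit lay upstream of that start at Rel and Tnfaip3 and downstream at the other 4, farthest at Nfkbia with 714 bp.

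Nfkbia encodes IκBα, the inhibitor that NF-κB itself induces and that ends its own activation. The gene, on the minus strand at chr12:55489410-55492647, carried the widest peak of the 6 and the one with the highest fold enrichment, chr12:55491673-55492581, with a width of 909 bp. Its summit lay 714 bp downstream of the start, in an intron, and the peak began 66 bp inside the gene and ended 974 bp into it. There were 22 fragments over a background of 1.68, and the fold enrichment was 8.59 (exact Poisson interval 5.52 to 12.8, p = 1.15e-18, q = 1.10e-13). In the order of all 4681 peaks by fold enrichment it ranked 141, and 97.0% of promoter peaks were lower. Its distance from the start was also among the larger ones, since 6.62% of promoter peaks lay more than 500 bp from a start. Printed next are the bases within 100 bp of the summit, chr12:55491833-55492033, and the 110 bases before the start, chr12:55492648-55492757. Each holds 1 kappaB match in capitals, that at the summit 24 bp from it and that in the promoter 20 to 29 bp before the start, outside the peak.

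Nfkbia summit: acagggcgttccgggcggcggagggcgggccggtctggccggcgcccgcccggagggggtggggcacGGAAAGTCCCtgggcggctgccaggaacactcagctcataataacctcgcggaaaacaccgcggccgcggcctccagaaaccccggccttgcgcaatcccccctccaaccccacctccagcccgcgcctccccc
Nfkbia start: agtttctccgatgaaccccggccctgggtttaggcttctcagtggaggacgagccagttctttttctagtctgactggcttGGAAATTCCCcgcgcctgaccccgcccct

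Nfkbib, which encodes IκBβ, lies on the minus strand at chr7:28758251-28767512 and had no summit in a promoter or inside it. The nearest was 44205 bp upstream at Hnrnpl, a gene for an RNA-binding protein of the hnRNP family, with 15 fragments and a fold enrichment of 4.80. On the 3′ side the next summit was 330112 bp from the same start. Of the 4 genes without a promoter summit, Nfkbib was the one nearest to a peak. The sequence printed next, 60 bases before the upstream of its starts (chr7:28766641-28766700), was chosen because it holds a match to the YY1 motif, in capitals, which reads AATATGGC on the opposite strand.

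Nfkbib start: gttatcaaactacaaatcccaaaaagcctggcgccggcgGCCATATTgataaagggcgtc

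Chuk and Ikbkb encode IKKα and IKKβ, the catalytic subunits of the IκB kinase. They lie at chr19:44073335-44107480 and chr8:22659212-22706589, both on the minus strand. Neither had a summit in a promoter or inside the gene. The summit nearest to Chuk lay 227785 bp away on its 3′ side at Dnmbp, a gene for a guanine nucleotide exchange factor. This was a weak peak, with 11 fragments over 2.96, a fold enrichment of 3.03 and q = 0.0743. The summit nearest to Ikbkb lay 112675 bp away, also on the 3′ side, at Vdac3, a gene for a mitochondrial outer membrane channel. That peak was among the strong ones, with 30 fragments and a fold enrichment of 10.4.

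**Figure D3:**
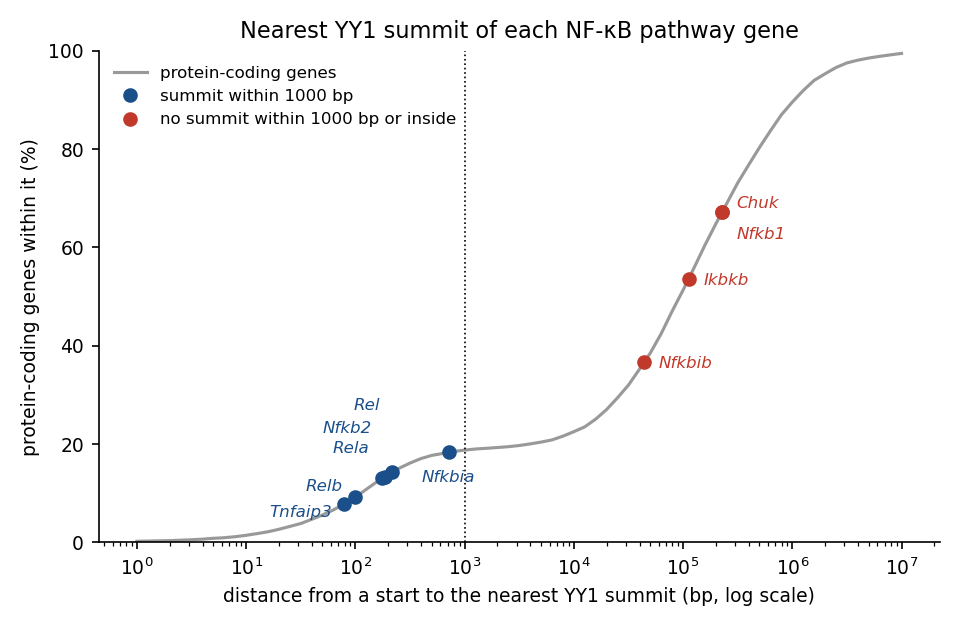
Share of protein-coding genes (y, %) that have a YY1 summit within a given distance of a start (x, bp, log scale), as a grey curve, with the 10 genes placed on it. The 6 genes with a promoter summit lie left of the dotted line at 1000 bp, and the nearest summit of the other 4 lies 44205 to 228223 bp away.

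Over all protein-coding genes the nearest summit lay a median of 93.7 kb from a start, and over those without a promoter summit a median of 150 kb. Of the 4 genes without one, Nfkbib lay nearer than this median, as did Ikbkb, and Nfkb1 and Chuk lay farther. Binding at these 4 genes was not detectable at this depth, which does not show that YY1 was absent. At the most frequent background of the list, 1.54 fragments, at least 8 fragments were needed to pass the authors' limit, a fold enrichment of 3.55, so a weaker site would not have been listed. None of the peaks at the 6 genes stood at that background, and 3 of the 6 had a fold enrichment below 5.

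Tnfaip3 encodes a ubiquitin-editing enzyme that restrains signalling to the IKK complex and is itself an NF-κB target. The gene record, chr10:19000910-19015657 on the minus strand, has 2 starts in the basic annotation. The peak, chr10:19015344-19015702, covered the upstream of these, with its summit 79 bp before it and 3526 bp before the other. The gene record reaches beyond both starts and includes the summit. The summit held 17 fragments over 2.96, a fold enrichment of 4.54 (exact Poisson interval 2.75 to 7.12, p = 2.96e-09, q = 2.39e-05), and 31.1% of the promoter peaks were lower. The 137 bases before the start, chr10:19015411-19015547, are printed because they hold the summit and 2 kappaB matches, 37 and 67 bp from it.

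Tnfaip3 summit: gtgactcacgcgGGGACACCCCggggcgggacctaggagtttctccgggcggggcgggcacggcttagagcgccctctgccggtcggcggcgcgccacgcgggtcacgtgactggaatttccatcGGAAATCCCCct

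Across the 6 summits, the reference sequence was searched on both strands for AANATGGC and for its core ATGGC, which every AANATGGC contains. It was also searched for the kappaB consensus GGGRNNYYCC, a word of 10 bases. In these words R is A or G, Y is C or T and N is any base. AANATGGC occurred within 100 bp of 0 of the 6 summits, beside 6.63% of all peaks (310 of 4678 with complete sequence) and 7.35% of promoter peaks. In whole peaks it occurred once, at Nfkbia, as AACATGGC, 589 bp from the summit and 118 to 125 bp downstream of the start. The core occurred within 100 bp of 1 summit, at Relb 93 bp away, beside 29.9% of all peaks. A missing word says only that these letters are not in the window.

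The kappaB consensus lay within 100 bp of 2 of the 6 summits, those of Nfkbia and Tnfaip3, beside 8.21% of all peaks. A match counted only where the whole word lay in the window. Within 200 bp it was found at 4 of the 6, beside 15.8% of all peaks, with Rel and Relb added, and the Nfkb2 word that begins 193 bp from the summit runs past this limit. At Nfkbia the match nearest the summit read GGGACTTTCC on the strand opposite to the gene, and overlapping matches 131 and 132 bp from the summit read GGGGGTTTCC and GGGGTTTCCC. At Tnfaip3 the matches read GGGACACCCC and GGGGATTTCC. The Rel pair overlapped, as GGGAAATCCC and, on the opposite strand, GGGGATTTCC, 126 bp from the summit. No kappaB match overlapped an AANATGGC match at these genes. A match is a description of the reference sequence and was not read as a bound site of NF-κB, which was not measured in this experiment.

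Promoter sequences from 250 bp before to 50 bp after every start were searched as well, for all 10 genes. The kappaB consensus occurred in 7 of the 10, beside 12.7% of 21934 protein-coding genes with complete sequence. With a promoter summit these were Rel, Relb, Nfkb2, Nfkbia and Tnfaip3, 5 of the 6, and without one Nfkb1 and Nfkbib, 2 of the 4. Among all protein-coding genes the share was 15.5% for those with a promoter summit and 12.0% for those without. Relb held GGGGTTTTCC and GGGGAATTCC, 88 to 97 and 15 to 24 bp before its start. At Nfkb2 the words GGGAATTCCC and GGGGCTTTCC lay 37 to 46 and 9 to 18 bp before the second start, which put them 193 and 221 bp from the YY1 summit, the first across the end of the peak and the second beyond it. Nfkb1, without any peak, held GGGAATTTCC 30 to 39 bp after its upstream start. The same word stood in the Nfkbia promoter, and GGGGAATTCC was shared by Relb, Nfkb2 and Nfkbib. Rela, Chuk and Ikbkb had no match in this window.

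AANATGGC occurred in 1 of the 10 promoters, that of Nfkbib 14 to 21 bp before the start, beside 9.07% of protein-coding genes (14.4% of those with a promoter summit and 7.85% of those without). The Nfkbia word 118 to 125 bp after its start lies outside this window. The 6 summits lay in GC-rich sequence, from 64.7% G or C within 100 bp at Tnfaip3 to 79.6% at Rela. Of all promoter peaks 22.5% had a lower share than that at Tnfaip3 and 89.4% a lower share than that at Rela. Observed over expected CpG in the promoter sequence, as the median over a gene's starts, ran from 0.539 at Nfkbia to 0.987 at Rel for the 6 genes with a summit and from 0.569 at Nfkb1 to 1.05 at Chuk for the 4 without. These ranges overlapped, while the medians over protein-coding genes were 0.848 with and 0.430 without a promoter summit. Chuk, with a value above that of 95.9% of protein-coding genes, had no peak.

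The other genes of the pathway, 89 in all and also listed with earlier results of these data known, were grouped by role. A promoter summit was present at 25 of them (28.1%, beside 18.8% of all protein-coding genes), while 3 of the 89, Myd88 and Bcl3 among them, had a summit only inside the gene record, beside 1.44% of protein-coding genes with this placement. Fold enrichment at the 25 had a median of 5.04 and ran from 2.69 to 7.60. None of the 8 ligand genes and 1 of the 11 receptor genes had a promoter summit, the latter being Ltbr, the lymphotoxin beta receptor that feeds the noncanonical branch, with 13 fragments and a fold enrichment of 5.19. Of the 14 classical target genes 2 had one, Gadd45b, a stress sensor (4.16), and Bcl2l1, an inhibitor of apoptosis (6.31).

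Of 19 adaptors and kinases before the IKK complex, 5 had one: the kinase gene Ripk1 (fold enrichment 4.51), the adaptor genes Traf5 (5.84), Traf6 (3.53) and Tab2 (7.10), and Map3k7 (5.04), which encodes a kinase that activates IKK. Of the 7 genes for ubiquitin ligases or ubiquitin-conjugating enzymes 3 had one, Birc2 (fold enrichment 7.60, the highest of the 25), Sharpin (5.92) and Ube2n (6.81). Both Tbk1, an IKK-related kinase, and Tank, its adaptor, had one among 4 genes of that group, with 5.38 and 5.13. The machinery that degrades IκB was represented by Fbxw11, Cul1, Skp1a and Rbx1, 4 of 5 genes, at 5.15, 4.70, 4.37 and 4.04. These are subunits of an SCF ubiquitin ligase that also acts on many other proteins.

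Among other IκB genes Nfkbiz had a promoter summit (3.95), 1 of 4. Among 12 further negative regulators 5 had one: the deubiquitinase genes Cyld (3.68) and Otulin (4.03), Itch (4.93), N4bp1 (4.47) and Spata2 (5.79). Of the 5 transcriptional cofactor genes Ep300 and Crebbp had one, Crebbp with 2 peaks of 6.31 and 4.37. The Ep300 peak was weak (2.69, q = 0.0701 by the authors' peak caller), and 0.302% of the promoter peaks were lower. At 7 of the 25 genes the summit lay within 1000 bp of a start of another gene too, so that the peak could not be assigned to one of them. These were Ripk1 with Serpinb6a, Sharpin with Maf1, Spata2 with Rnf114, Traf5 with Gm26879, Cul1 with A930035D04Rik, N4bp1 with 2010110E17Rik, and Ep300 with 1110025M09Rik. The summit counted for Myd88 lay outside its basic transcripts and 28 bp from the start of Acaa1a.

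**Figure D4:**
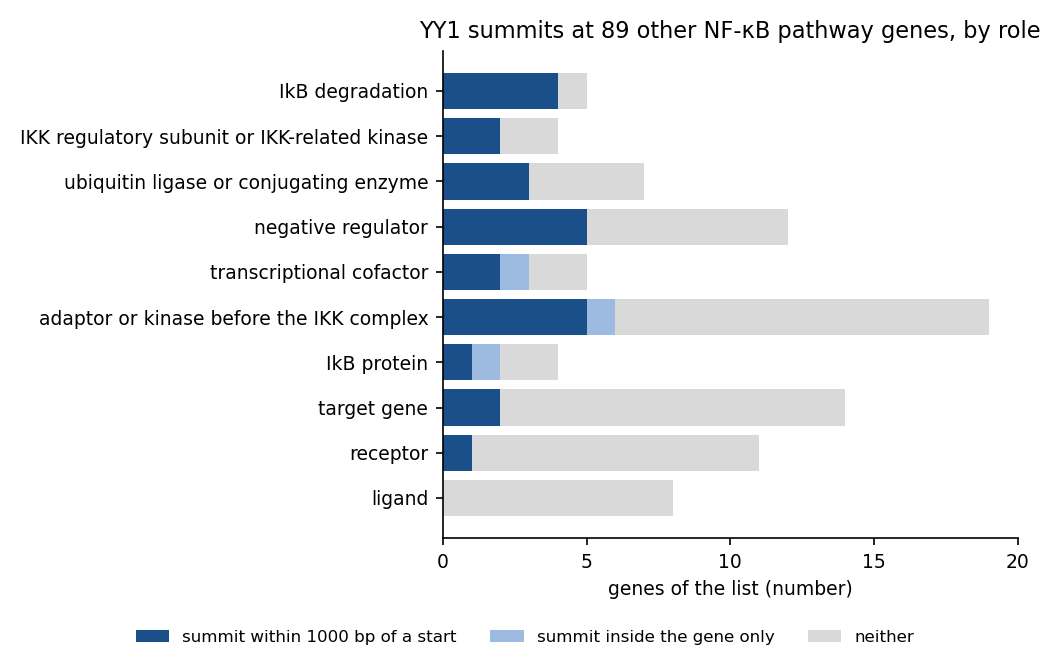
Number of genes (x) by role in the wider list of 89 NF-κB pathway genes, split by placement of YY1 summits: within 1000 bp of a start (dark), inside the gene only (light) or neither (grey). The share with a promoter summit ran from 0 of 8 ligand genes to 4 of 5 genes for the degradation of IκB.

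The kappaB consensus occurred in the promoter sequence of 24 of the 89 genes (27.0%, beside 12.7% of protein-coding genes), among them all 4 other IκB genes and 6 of the 14 target genes, and 5 of the 24 had a promoter summit, beside 25 of the 89. Within 100 bp of the 26 promoter summits of the wider list, AANATGGC occurred at 2, those of Tab2 and Rbx1, the core at 6 and the kappaB consensus at 4, those of Map3k7, Tank, Gadd45b and Bcl2l1. Over all promoter peaks the shares were 7.35%, 31.0% and 8.23%. The stricter form of the consensus has A or T at its sixth base, and 3.65% of promoter peaks held it. With this form 2 remained, those of Map3k7 and Tank.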

How the data were processed

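YY1 ChIP-seq peaks of MuSCs were analysed from 1 deposited list, made from 1 YY1 library and 1 background library, which was not analysed on its own. Per the labels and the methods, the authors removed adapters and low-quality reads, aligned with Bowtie2 to mm10 and discarded duplicate reads before peak calling with MACS2 (p-value limit 0.0001). Versions are not given in the sources used here. The deposited fold enrichment is a ratio to the local background, each value plus 1. The −log10 p-value deposited with each peak, its −log10 q-value and an integer score, which was not used, came from MACS2 as run by the authors.

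Fragments and background at each summit were recovered from these values, whole for 100% of peaks (tolerance 0.001 on −log10 p), with exact Poisson 95% intervals. Summits were placed against transcript starts of GENCODE release 21 (mouse, basic). Sequence was read from GRCm38 (RefSeq), the sequence of mm10, and no coordinates were converted. Observed over expected CpG is the CpG count times the length over the product of the C and G counts. A gene counted as holding a motif when the window of any of its starts did. The 10 genes and the lists were chosen with earlier results of these data known. Named were the 10 genes, the genes of the wider list with a promoter summit, and genes whose start lies at a summit described for them. Myd88 and Bcl3 were chosen after their values were seen, and 1 gene of the wider list is not reported here by name. With 1 library no test between conditions was possible. The scripts were tested on simulated data. Software was Python 3.11.15 with scipy 1.17.1, numpy 2.4.6, pysam 0.24.0, pandas 2.3.3 and matplotlib 3.10.9. Alternatives covered peak limits, promoter windows, placement by overlap, annotations and motif windows and forms.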

Additional observations from a re-analysis of the deposited data

How the results depend on the processing

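Rel kept a promoter summit under all 11 alternatives for placement, Rela, Relb and Tnfaip3 under 10, and Nfkb2 and Nfkbia under 9, while Nfkb1, Nfkbib, Chuk and Ikbkb gained none under any. When only peaks enriched at least 5-fold were used, the count of the 10 genes fell to 3 in a promoter and to 3 in a promoter or inside the gene, that of the wider list to 13 and that of protein-coding genes to 2445. Nfkb2 was lost with q under 0.01, when its nearest summit lay 155819 bp away, and that of Chuk then lay 354354 bp away. Nfkbia was lost with a promoter of 500 bp, and Rela and Nfkbia with 1000 bp upstream to 100 bp downstream. With gene-level starts the Tnfaip3 summit lay 168 bp downstream of the start, whereas in the main placement it lay 79 bp upstream. The core ATGGC in place of AANATGGC gave 1 peak. The kappaB consensus was found in 9 of the 10 promoters with 500 bp either side of a start (31.9% of protein-coding genes) and in 7 with its stricter form (6.85%). The kappaB consensus within 100 bp of wider-list summits fell from 4 to 2 with its stricter form, an alternative chosen after seeing the data. The other counts of genes with a summit stayed within 1.5 times their values. No paired analysis was possible because the design has a single library per antibody, and no replicate could be left out. Depth limits the lower end: a site with fewer than 8 fragments could not enter the list.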
